A study of Mus musculus with 9 samples.

Results

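The cytosolic ribosomal protein genes were examined in the liver after systemic CD40 activation. They were taken from the table by gene name, as all rows named Rpl or Rps with a number, plus Rpsa, Rplp0, Rplp1 and Rplp2, without the S6 kinases and without names marked as pseudogenes. The rule gave 84 of 24341 rows, of which 31 encode proteins of the small (40S) ribosomal subunit, 46 encode proteins of the large (60S) subunit and 7 are paralogs of subunit genes. They lie on 19 chromosomes. Anti-CD40 here is the agonist antibody FGK45, which switches on the receptor CD40. Bulk liver was collected 48 hours after the antibody from 3 treated wild-type (WT) C57BL/6 mice, numbered 2, 5 and 9, and from 6 WT C57BL/6 control mice that the labels mark as PBS, numbered 3, 4, 7, 8, 11 and 12. The labels give no age for the animals and name no batch, and each mouse gave 1 library. The values are FPKM, which scale fragments by transcript length and by a size factor for each library, from libraries that read the 3′ end of mRNA.

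A ribosome is built from a small subunit, which reads the mRNA, and a large subunit, which joins amino acids. Each subunit holds ribosomal RNA and a fixed set of proteins, most of them present as a single copy, and the proteins are made in large and matched amounts. Many ribosomal protein mRNAs start with a run of pyrimidines at the 5′ end, the terminal oligopyrimidine (TOP) tract, through which the kinase mTORC1 controls their translation. Liver is a tissue of high protein output, and most of its mRNA comes from hepatocytes.

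A pyrimidine tract, searched on the sense strand as a C followed by at least 4 bases that are C or T and starting within 10 bases of a RefSeq start site, was present in 34 of the 57 subunit genes with a promoter in the RefSeq table (59.6%), against 34.4% of all 27025 genes with a promoter and 37.2% of the genes tested. The windows of 5 members are shown because they carry the same kind of tract while their mRNA levels behaved differently. Rps15a was called higher, Rps6 and Rplp2 were not called, and Rpl28 and Rpl7a were called lower. Each window runs 5′ to 3′ from 20 bases before to 10 bases after the start site, in build GRCm38.p6, and the tract is in capitals. The search began 10 bases before the start site. A run that begins further upstream was counted and is marked only from that base on, as in Rpl7a.
Rps15a (chr7:118116138-118116167, minus strand): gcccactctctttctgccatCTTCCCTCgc
Rps6 (chr4:86857358-86857387, minus strand): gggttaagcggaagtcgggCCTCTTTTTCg
Rplp2 (chr7:141447631-141447660, plus strand): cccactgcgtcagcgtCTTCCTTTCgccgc
Rpl28 (chr7:4792945-4792974, plus strand): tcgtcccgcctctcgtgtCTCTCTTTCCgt
Rpl7a (chr2:26910787-26910816, plus strand): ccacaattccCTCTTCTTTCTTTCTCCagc
The tract was found in 4 of the 9 members called lower that had a promoter and in 29 of the 47 that were not called. In the 300 bases around the start, the letters CCGGAAG, searched on both strands, were present in 42.1% of the 57 members, against 9.93% of all genes and 18.6% of the genes tested. AAGATGG on both strands was present in 15.8% of them, against 7.28% of all genes and 8.18% of the genes tested. TATAAA was present in 10.5%, against 15.7% of all and 9.76% of those tested. Such a match is a description of the letters only.

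On the deposited scale, few ribosomal protein genes passed the test. Of 83 members tested with limma on log2(FPKM + 0.1), 2 were called higher after anti-CD40 at an adjusted p under 0.05 and 16 were called lower, while 65 were not called. Over all 13807 genes tested, 45.1% were called, 23.5% higher and 21.7% lower. The members' share called lower, 19.3%, was therefore close to that of all genes, and their share called higher was 2.41%. The groups did not overlap in 20 members, against 42.4% of all genes. The median log2 fold change of the members was -0.20, against 0.01 over all genes, and 62 members lay below 0 and 21 above it. The sign of the members' median depended on the scaling. The median was -0.20 as deposited. Median-of-ratios scaling, with factors of 1.004 to 1.01, also gave -0.20, because the deposited columns were already close to that scale. The members' median was 0.19 after quantile normalization, against -0.09 for all genes. After removal of Saa1, Saa2 and Saa3 with rescaling to equal sums it was 0.17, still below the 0.35 of all genes.

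**Figure D1:**
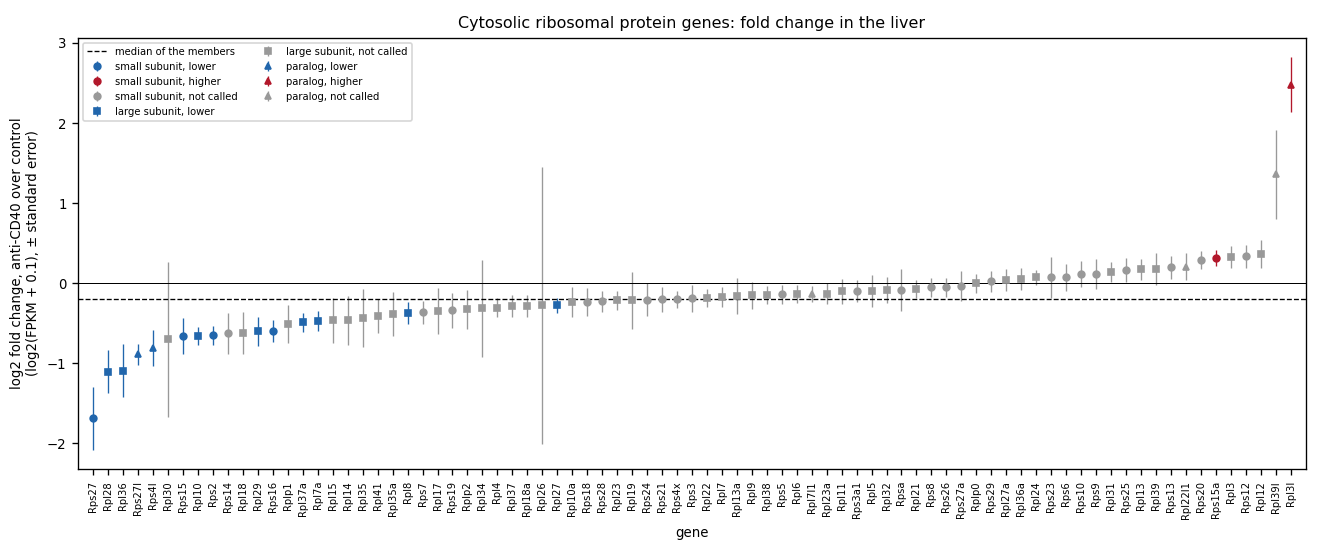
Log2 fold change (anti-CD40 over control, ± standard error) of the members tested, ordered by size and without 2 that are not shown, with subunit as marker shape and limma call as colour. Most members lie below 0 on the deposited scale (62 of all 83 tested), with the median of all 83 at -0.20. The sign of this median turns under quantile normalization. It also turns with Saa1, Saa2 and Saa3 left out, where the median of all genes is 0.35, above that of the members.

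The 3 serum amyloid A genes, which encode acute phase proteins of the liver, took 25.4% to 25.9% of all FPKM in treated mice, against 0.0448% to 0.380% among controls. The members took 5.61% to 6.62% in treated mice, against 6.42% to 9.01% in controls. Without the Saa genes the same shares were 7.53% to 8.88% and 6.43% to 9.02%. The ranges overlapped in both cases. With the Saa genes left out, the median of all genes moved to 0.35, and the members lay 0.18 below it on the log2 scale. After quantile normalization the median of all genes was -0.09 and the members lay 0.29 above it. In those fits 20 and 23 members were called higher and 3 were called lower in each, and 18 were called higher in both. Over all genes the calls moved from 3240 higher and 2990 lower to 5633 and 1647 with the Saa genes left out, and to 2969 and 3424 after quantile normalization. Rpl3l and Rps15a were called higher, and Rps27 and Rps27l lower, under all 3 scalings.

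**Figure D2:**
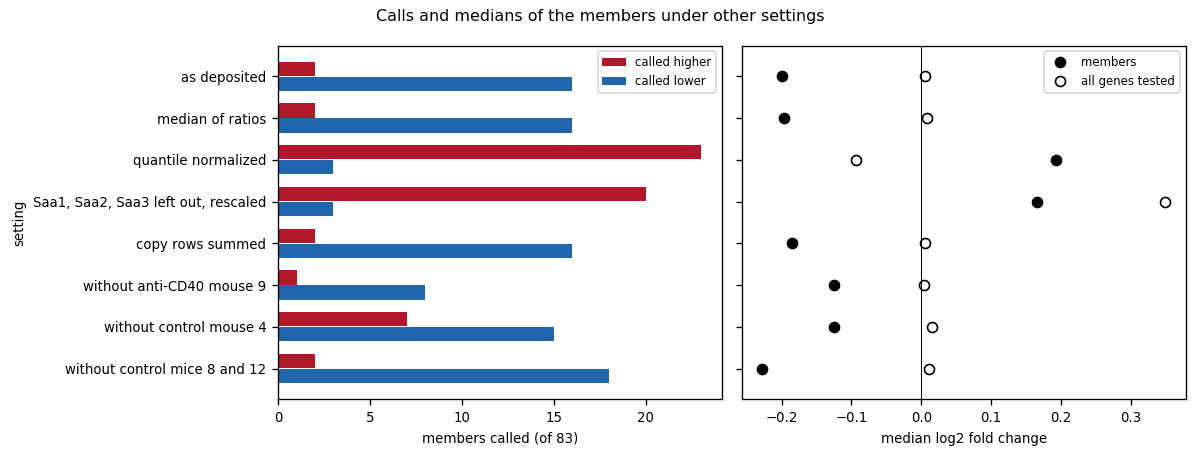
Members called higher or lower of 83 tested (left) and median log2 fold change of the members and of all genes tested (right) under 8 settings. The counts turn from 2 higher and 16 lower as deposited to 23 higher and 3 lower after quantile normalization, and to 20 and 3 with the Saa genes left out. Over all genes tested, 2969 of 13800 are called higher after quantile normalization and 5633 of 13852 with the Saa genes left out.

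Rps15a was the only subunit gene called higher. It measured 53.0, 48.7 and 48.6 FPKM in treated mice 2, 5 and 9, and 34.5 at the lowest, 41.0 at the median and 43.1 at the highest in the controls. All 3 treated mice lay above every control. The log2 fold change was 0.32 ± 0.10 (SE), with an adjusted p of 0.026 by limma. The adjusted p lay between 0.0598 and 0.112 when any of the treated mice was left out.

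Other small subunit genes did not pass the test on the deposited scale but were called higher on another. Rps12 gave 7353, 6597 and 6728 in treated mice 2, 5 and 9, and 4631, 5478 and 6302 as lowest, median and highest control. The groups did not overlap, but the adjusted p by limma was 0.0723. It was 0.0382 without control mouse 4, 0.0301 under quantile normalization and 0.0018 with the Saa genes left out. Rps12 was called in only 4 of 20 alternative fits. Its adjusted p by limma was 0.124 to 0.218 when any single treated mouse was left out. Rps20, another protein of the small subunit, gave 885 to 995 in the treated mice and 655 to 816 in the controls, with an adjusted p of 0.055 by limma. Its log2 fold change was 0.29, and it was called higher at 0.78 under quantile normalization (adjusted p 0.000239) and at 0.66 with the Saa genes left out (0.000535). Rps29, a small zinc-binding protein, was at 4181 ± 257 (SD, n = 3) and 4121 ± 458 (SD, n = 6), with overlapping groups. It was called higher with the Saa genes left out, at 0.39 (adjusted p 0.0153 by limma), where the median of all genes was 0.35.

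Of the 31 small subunit genes, 1 was called higher and 6 lower, with a median log2 fold change of -0.13, which was 0.27 after quantile normalization and 0.23 with the Saa genes left out. Rps2, which lies near the mRNA entry, gave 96.0, 87.4 and 106.6 FPKM in treated mice 2, 5 and 9, against 122.8, 157.4 and 161.8 as lowest, median and highest control. Its groups did not overlap, and it fell by 0.65 on the log2 scale (SE 0.12, adjusted p 0.00132 by limma). Rps16 gave 178.7 to 223.3 FPKM in the treated mice and 271.1 to 369.3 in the controls, and fell by 0.59 (SE 0.14, adjusted p 0.00489 by limma). For both genes the call was lost under quantile normalization and with the Saa genes left out.

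Rps15 also passed the test, at 954.3, 1048 and 491.1 FPKM in treated mice 2, 5 and 9 and 1083 to 1516 in the controls. The separation of the groups was narrow, and the value of mouse 9 was far below the others. Its log2 fold change was -0.66 (SE 0.23, adjusted p 0.0355 by limma) and was -0.32 without treated mouse 9, with an adjusted p of 0.151. Without control mouse 4, 7, 8 or 12 it was also not called, with adjusted p between 0.0515 and 0.0627. The value was -0.18 (adjusted p 0.535) under quantile normalization and -0.29 (0.298) with the Saa genes left out. The deposited position of Rps15 spans chr10:79697305-80369637 and holds other rows.

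Rps6, the substrate of S6 kinase downstream of mTORC1, gave 28.0, 27.1 and 26.3 FPKM in treated mice 2, 5 and 9, inside the control range of 20.8 to 35.5. Its log2 fold change was 0.08 ± 0.17 (SE). Rps3, which also binds the NF-κB subunit p65, gave 538.5 to 713.9 against 543.8 to 911.9. Rps27a, made as a fusion with ubiquitin, gave 597.2 to 795.7 against 530.4 to 931.7, and Rps19, a protein needed for small subunit maturation, gave 179.6 to 387.2 against 293.1 to 412.9. None of these 4 genes was called, and their groups overlapped. Rpsa, known also as the laminin receptor, gave 55.5 to 130.5 against 80.2 to 133.3, and Rps4x gave 105.7 to 113.3 against 103.4 to 133.5. Neither was called.

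Of the 46 large subunit genes, none was called higher with limma at the adjusted p of 0.05, and 8 were called lower, with a median log2 fold change of -0.26, which was 0.15 after quantile normalization and 0.11 with the Saa genes left out. In those 2 fits 12 and 8 of the 46 were called higher, against 2969 of 13800 and 5633 of 13852 of all genes tested. Rpl28 gave 146.3, 174.7 and 64.1 FPKM in treated mice 2, 5 and 9, against 213.1, 258.1 and 291.7 as lowest, median and highest control. All 3 lay below every control, with mouse 9 lowest. It fell by 1.11 on the log2 scale (SE 0.27, adjusted p 0.00689 by limma), by 0.67 without treated mouse 9 (adjusted p 0.00875), and by 0.65 after quantile normalization, where it was not called (adjusted p 0.0812). Rpl10, which is added late to the large subunit and is needed for it to join translation, gave 36.0, 36.3 and 36.4 FPKM in the treated mice and 50.0 to 66.6 in the controls. The 3 anti-CD40 values were close together and below every control. Rpl10 fell by 0.66 on the log2 scale (SE 0.12, adjusted p 0.00103 by limma), and was not called with the Saa genes left out (adjusted p 0.0883).

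Rpl7a and Rpl37a fell by 0.47 and 0.49 on the log2 scale, with adjusted p of 0.00941 and 0.00669 by limma and groups that did not overlap. Neither was called under quantile normalization (0.0094 and 0.0247) or with the Saa genes left out (-0.11 and -0.12). Rpl36 and Rpl29 were called lower with overlapping groups. Rpl36 gave 301.0, 559.1 and 179.0 FPKM in treated mice 2, 5 and 9 and 488.9 to 971.2 in the controls, with a log2 fold change of -1.09 (SE 0.33, adjusted p 0.0217 by limma). Without treated mouse 2 or mouse 9 neither Rpl36 (adjusted p 0.071 and 0.111) nor Rpl29 (0.0532 and 0.0967) was called. Under quantile normalization their adjusted p were 0.191 and 0.0575, and with the Saa genes left out 0.0984 and 0.269. Rpl8 and Rpl27, with log2 fold changes of -0.37 and -0.28, completed the 8. Their adjusted p by limma were 0.0427 and 0.0411, and without single mice they went up to 0.194 and 0.15. Both calls were lost when any single treated mouse was left out. Both were also lost without control mouse 7, 8, 11 or 12, and that of Rpl8 without control mouse 3. After quantile normalization they were at 0.13 and 0.19, and with the Saa genes left out at -0.0058 and 0.0907, not called in either.

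The stalk of the large subunit, which recruits elongation factors, is built from the proteins of Rplp0, Rplp1 and Rplp2. Rplp0, which is also in common use as a reference gene, gave 204.2, 223.7 and 191.0 FPKM in treated mice 2, 5 and 9, and 176.7, 204.5 and 244.7 as lowest, median and highest control. The treated mice lay inside the control range, and the log2 fold change was -0.0021 ± 0.12 (SE, adjusted p 0.990 by limma). Under quantile normalization Rplp0 was called higher, at 0.47 (adjusted p 0.00432 by limma). It was also called higher with the Saa genes left out, at 0.36 (adjusted p 0.0124), where the median of all genes was 0.35. Rplp1 gave 2727, 4769 and 2421 FPKM against 3736 to 6480, and Rplp2 gave 2387, 2654 and 1105 against 2096 to 2756. Neither was called on the deposited scale, although Rplp1 was called lower without treated mouse 5 (adjusted p 0.0169), and treated mouse 9 was lowest in both.

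Rpl5 and Rpl11, which can bind Mdm2 together with ribosomal RNA outside the ribosome, had overlapping groups. Rpl5 gave 40.1 to 52.0 FPKM against 34.5 to 68.6, and Rpl11 gave 2383 to 3070 against 2481 to 3745. Rpl13a, which also acts in a complex that represses translation of inflammatory mRNAs, gave 832.7 to 1146 against 820.0 to 1710. None of the 3 was called. Rpl3, a protein of the peptidyl transferase region, gave 232.4 to 296.1 against 180.6 to 258.9, with a log2 fold change of 0.32 ± 0.14 (SE, adjusted p 0.0738 by limma) that was called without control mouse 4 (adjusted p 0.0176). Rpl3 was also called higher under quantile normalization, at 0.79 (adjusted p 0.00177), and with the Saa genes left out, at 0.69 (0.00255). Rpl22, Rpl23a and Rpl39 were not called, with log2 fold changes of -0.19, -0.13 and 0.18, although Rpl39 was called higher under quantile normalization (0.69, adjusted p 0.0243).

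**Figure D3:**
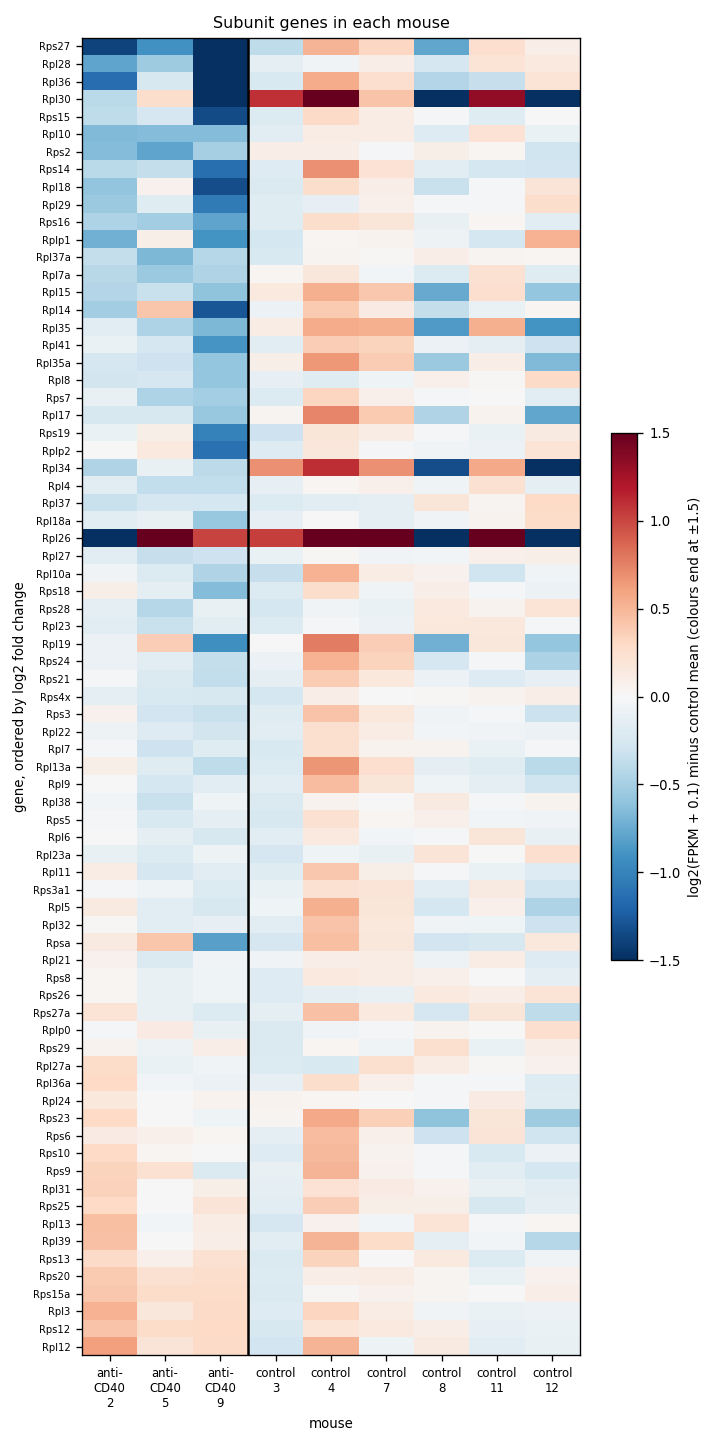
Log2(FPKM + 0.1) of the subunit genes in each of the 9 mice, without 2 that are not shown, as the difference from the control mean, with genes ordered by fold change. Anti-CD40 mouse 9 was the lowest treated mouse in 43 of all 77 subunit genes, and control mouse 4 was the highest control in 48, both on the deposited scale.

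The members did not vary alike in each mouse. Anti-CD40 mouse 9 was more than 0.5 below the mean of mice 2 and 5 on the log2 scale in 16 of the 77 subunit genes (20.8%), against 4.74% of the 4451 genes whose FPKM averaged 10 or more. Without mouse 9, 1 member was called higher and 8 lower, with a median of -0.12. Of the 18 members called, 9 kept the call without any single mouse, namely Rpl3l, Rps27l, Rpl10, Rps2, Rps16, Rps27, Rpl37a, Rpl28 and Rpl7a. Control mice 8 and 12 averaged more than 0.5 below the other controls in 12 subunit genes (15.6%), against 8.90% of the same 4451 genes. Leaving both out gave 2 higher and 18 lower, of which 11 were among the 16. Control mouse 4 was the highest control in 48 subunit genes, and 7 members were called higher and 15 lower without it.

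Rps27 had the largest log2 fold change among the members called lower, but its row is not alone. It gave 346.2, 486.6 and 134.7 FPKM in treated mice 2, 5 and 9, against 528.1, 1029 and 1292 as lowest, median and highest control, with no overlap. It fell by 1.68 on the log2 scale (SE 0.39, adjusted p 0.00553 by limma). The table gives the same position to Rps27rt, a retrotransposed copy that RefSeq places on chromosome 9 and not on chromosome 3. Rps27 held 4.74% to 15.5% of the FPKM of the pair in the treated mice and 19.4% to 40.5% in the controls. Summed over the pair, the FPKM was 3257, 3148 and 2844 in the treated mice and 2586 to 3905 in the controls, and the groups overlapped. The log2 fold change of the sum was 0.07 ± 0.15 (SE, adjusted p 0.723 by limma).

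The positions of Rpl26, Rpl30 and Rpl34, which were not called on their own rows, also carry Gm15772, Gm12191 and Rpl34-ps1. RefSeq places these copies on chromosomes 5, 11 and 6. In each of these pairs the member took at most 3.73% of the FPKM in any mouse. Rpl26 was at the floor of 0.01 FPKM in treated mouse 2 and control mice 8 and 12, and gave 5.27 and 2.83 in treated mice 5 and 9 and 2.88, 7.99, 5.33 and 5.86 in control mice 3, 4, 7 and 11. Summed with its copy, Rpl26 gave 520.9, 392.4 and 429.1 in the treated mice and 492.3 to 718.2 in the controls, and fell by 0.42 on the log2 scale (adjusted p 0.0351 by limma). The sums for Rpl30 and Rpl34 were not called. Among the members, 35 share a position with another row of the table, 24 of them with a small RNA. The 43 subunit genes alone at their position, paralogs not counted, gave 1 called higher and 8 called lower, with a median of -0.21.

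**Figure D4:**
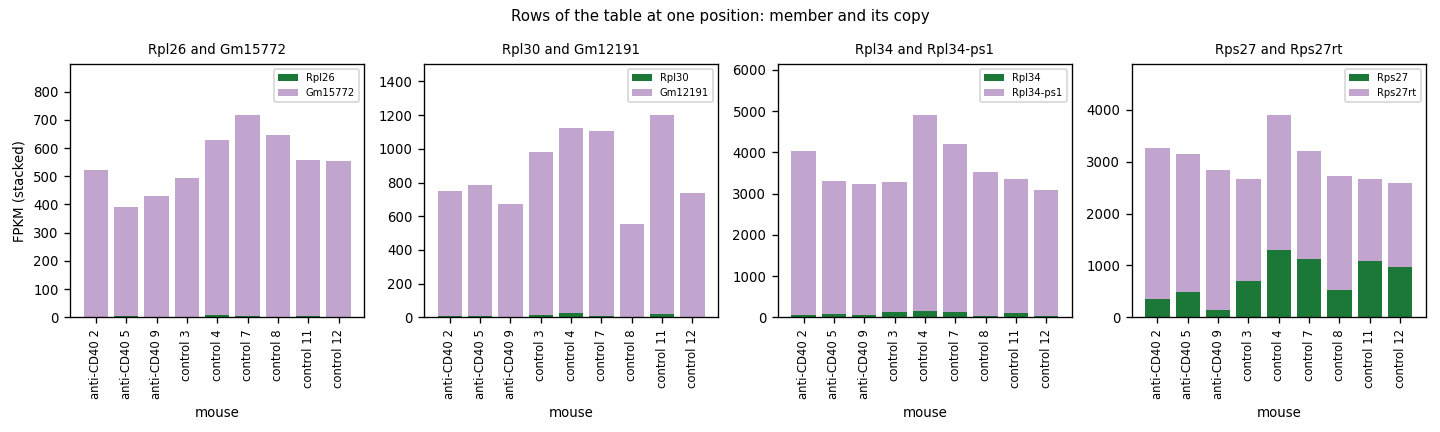
FPKM of 4 members (green) stacked on the copy listed at the same position (purple), for each mouse. The share of Rps27 in its pair is 4.74% to 15.5% in the 3 treated mice and 19.4% to 40.5% in the 6 controls, while the sums overlap.

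The smallest adjusted p in each direction belonged to paralogs. Rps27l, a relative of Rps27 and a known target of p53, gave 482.1, 436.0 and 446.4 FPKM in treated mice 2, 5 and 9, against 707.7, 848.8 and 974.6 as lowest, median and highest control. All treated mice lay below every control. It fell by 0.89 on the log2 scale (SE 0.13, adjusted p 0.000343 by limma), and was called lower in all 20 alternative fits. The value was -0.40 after quantile normalization and -0.52 with the Saa genes left out. Rpl3l, a relative of Rpl3 known from striated muscle, was low in all mice. It gave 1.68, 1.15 and 0.866 FPKM in treated mice 2, 5 and 9 and 0.0579, 0.131 and 0.266 as lowest, median and highest control. The groups did not overlap, and it was 2.48 higher on the log2(FPKM + 0.1) scale (SE 0.34, adjusted p 0.000227 by limma). With a pseudocount of 1 the value was 0.95.

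Rps4l was called lower with overlapping groups, at 19.8, 40.4 and 25.9 FPKM in treated mice 2, 5 and 9 and 34.3 to 57.5 in the controls. Its deposited position, chr6:148047416-148444352, also holds other rows, and it was not called without treated mouse 2 (adjusted p 0.0812) or mouse 9 (0.0536), under quantile normalization (0.0547) or with the Saa genes left out (-0.44, 0.139). Rpl7l1, Rpl22l1 and Rpl39l were not called, with log2 fold changes of -0.13, 0.21 and 1.36. Rpl39l was called higher without control mouse 4 (adjusted p 0.0418) or control mouse 8 (0.0357), and with the Saa genes left out (0.0281). Rpl22l1 was called higher under quantile normalization (0.70, adjusted p 0.0103) and with the Saa genes left out (0.57, 0.0206). Rpl10l, known from testis, was at the floor of 0.01 FPKM in all 9 mice and was not tested.

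Among ribosomal proteins that the naming rule does not reach, Gnb2l1, the scaffold protein Rack1, was called higher, with overlapping groups and a log2 fold change of 0.40, a call that held under all 3 scalings. Fau and Rpl36al were not called.

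**Figure D5:**
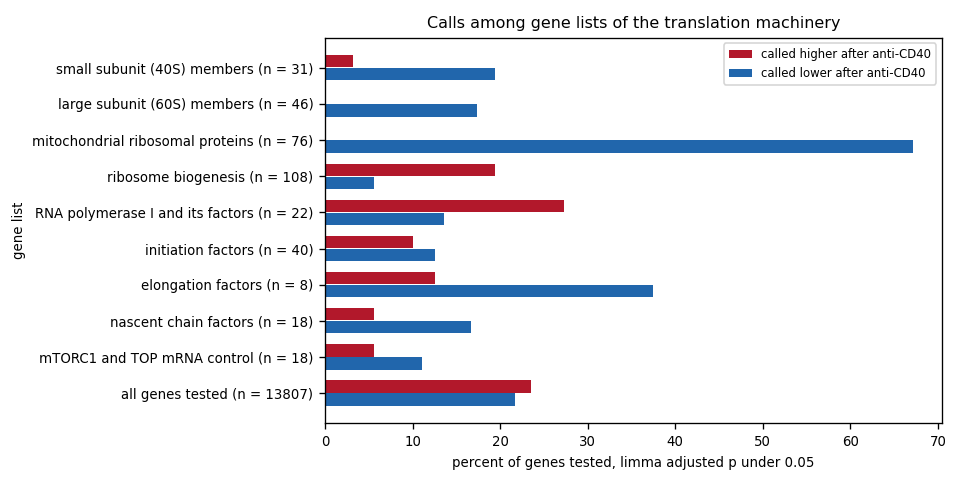
Percent of tested genes called higher (red) or lower (blue) after anti-CD40 by limma, for lists of the translation machinery and for all 13807 genes, on the deposited scale. Mitochondrial ribosomal proteins had 51 of 76 called lower, against 6 of 31 and 8 of 46 for the cytosolic subunits, counts that become 33, 1 and 1 under quantile normalization and 23, 1 and 1 with the Saa genes left out. Over all genes tested, 3424 of 13800 and 1647 of 13852 are called lower in those 2 fits.

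Other parts of the translation machinery are given beside the members as counts, without a test of the difference. Of all 13800 genes tested after quantile normalization, 2969 were called higher and 3424 lower. With the Saa genes left out these were 5633 and 1647 of 13852. The mitochondrial ribosomal proteins, which serve translation in mitochondria, had none called higher by limma and 51 of 76 called lower, with a median log2 fold change of -0.50. The median was -0.23 after quantile normalization (2 higher, 33 lower) and -0.14 with the Saa genes left out (5 higher, 23 lower). Mrpl14, of the large mitochondrial subunit, fell from 548.2 to 205.4 FPKM on average. Ribosome biogenesis factors had 21 of 108 called higher and 6 lower, with a median of 0.16. With the Saa genes left out 66 were called higher and 1 lower, with a median of 0.50, and after quantile normalization 24 and 7, with a median of 0.11. Nop56, a core protein of box C/D snoRNPs, rose from 8.11 to 17.7 FPKM, and Imp3, of the small subunit processome, fell from 164.3 to 82.9. Of RNA polymerase I and its factors, 6 of 22 were called higher and 3 lower, which became 4 and 2 after quantile normalization and 11 and 0 with the Saa genes left out. Tcof1, a nucleolar factor of ribosomal RNA synthesis, rose from 2.41 to 6.11 FPKM.

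Initiation factors had 4 of 40 called higher and 5 lower, which became 12 and 3 after quantile normalization and 17 and 1 with the Saa genes left out. In those 2 fits 2969 of 13800 and 5633 of 13852 of all genes tested were called higher. Eif6, which keeps free large subunits from joining small ones, rose from 50.7 to 106.9 FPKM, and Eif4b fell from 30.0 to 18.7. Of 8 elongation factors tested, 1 was called higher and 3 lower (2 and 1 after quantile normalization, 2 and 0 with the Saa genes left out), with Eef2, the translocase, falling from 332.2 to 207.9, a call that neither of those scalings kept. Of 18 genes of mTORC1 and TOP mRNA control, 1 was called higher and 2 lower, with 3 and 5 after quantile normalization and 3 and 0 with the Saa genes left out. Of 18 nascent chain factors the counts were 1 and 3 as deposited, 7 and 2 after quantile normalization and 9 and 1 with the Saa genes left out.

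The mRNA levels of cell type markers in the tissue also differed between the groups, on the deposited scale unless another is named. All 12 neutrophil markers tested were called higher, and their summed FPKM was 6979 to 7726 in treated mice and 23.0 to 162.6 in controls. Of 14 monocyte and macrophage markers 10 were called higher and 1 lower (summed FPKM 387.6 to 511.4 against 70.0 to 105.7), and of 14 T and NK cell markers 13 were called higher (82.9 to 110.7 against 6.93 to 18.4). Of 9 B and plasma cell markers 6 were called higher (279.1 to 288.6 against 204.4 to 262.5), as were all 18 proliferation genes (159.7 to 216.0 against 23.9 to 44.7). All 8 Kupffer cell markers were called lower (41.2 to 51.2 against 292.7 to 470.6). Of 19 hepatocyte markers 15 were called lower and 2 higher, with a summed FPKM of 28840 to 35380 against 63860 to 126700. The number called lower was 13 after quantile normalization and 12 with the Saa genes left out. Among the hepatocyte markers Alb, which encodes albumin, fell from 5040 to 932.5 FPKM on average. Of 10 endothelial markers 3 were called higher and 5 lower, which became 4 and 3 with the Saa genes left out. Of 9 erythroid markers 2 were called lower. Of 13 pancreatic acinar genes 1 was called higher, with a summed FPKM of 28.4 to 1443 in treated mice and 72.0 to 196.2 in controls. The called gene, Cpb1, was at 177.6 FPKM in treated mouse 5 and at 0.350 and 1.28 in mice 2 and 9. In bulk tissue, fewer cells of a type and less RNA per cell cannot be told apart, and the part of these shifts in the members' values was not tested.

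GC content and length of the members' transcripts were set beside the fold changes. Across the 77 subunit genes, the log2 fold change had a Spearman rho of -0.32 and a Pearson r of -0.33 with the GC percent of the transcript, and a rho of 0.21 with its length. These are descriptions over genes that share the same 9 libraries. The median GC was 52.5% in the 14 genes called lower and 51.9% in the 62 not called.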

How the data were processed

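Total RNA of 9 livers was sequenced with QuantSeq 3′ FWD libraries on a NextSeq 500. Per the labels and the study's methods, the authors aligned reads to mm10 with STAR and made FPKM with Cufflinks and Cuffdiff. The deposited FPKM have a floor of 0.01. Their median-of-ratios factors were 1.004 to 1.01, so the columns were already close to that scale. FPKM divide by transcript length although 3′ reads do not scale with it, so no order of levels between genes is drawn. The annotation and the filter on rows are not given in the sources used here. The absolute depth is unknown and limits low genes. Relative depth, from the steps of low values, was 0.991 to 1.13 after anti-CD40, against 0.870 to 1.06 among controls.

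Groups came from the labels. Rows with a failed estimate (15, no member) were left out. Log2(FPKM + 0.1) of genes averaging 0.1 FPKM or more was fitted with limma 3.58.1 (R 4.3.3, eBayes with trend), 2-sided, with Benjamini-Hochberg adjustment over 13807 genes at 0.05. The labels do not say whether mice shared cages or days, so p-values measure the spread between these mice. Exact permutation tests over the 84 splits have a smallest p of 0.0238. On simulated data 70.5% of 200 changed genes were recovered (83.5% at a log2 change of 2 and 58.3% at 1), with 13 false calls. The other genes of the 13807 were left unchanged there, and the control spread was used for both groups. In the data 45.1% of genes were called. The recovery of changes as small as the members' median was not tested.

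The members and all lists were chosen with earlier results of these data known. Genes were named by this rule: up to 5 largest called increases and decreases without overlap (only 2 increases, Rpl3l and Rps15a, met it), the 3 highest mean FPKM, members with a known separate role, and paralogs, plus up to 4 called genes per other list. Rps2, Rps16, Rps20, Rpl36, Rpl29, Rpl7a, Rpl37a, Rpl8, Rpl27, Rpl26, Rpl30 and Rpl34 were added after their values were seen. Some genes are counted but not reported by name here. Alternatives changed the pseudocount, filter, scaling, variance model, threshold, mice and overlapping rows. Leaving out control mice 8 and 12 together and summing copy rows were chosen after seeing the data. Promoters came from RefSeq (GRCm38.p6) and transcripts from GENCODE. Python 3.11.15, numpy 2.4.6, pandas 2.3.3, scipy 1.17.1 and matplotlib 3.10.9 did the rest.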

Additional observations from a re-analysis of the deposited data

Results flagged for a closer look

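Among 29 named members with varying values, 3 had a control mouse far from the other 5, measured as its gap to the nearest control divided by the range of the controls, above Dixon's limit for 6 samples. Chance flags about 1 in 20 groups, or 1.45 here. For Rps15a the gap was 0.659, with control mouse 3 lowest at 34.5 FPKM. For Rps4x it was 0.694, again with control mouse 3 lowest, at 103.4 FPKM. For Rplp1 it was 0.667, with control mouse 12 highest at 6480 FPKM.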

How the results depend on the processing

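The deposited FPKM hold no spike-in, so the sign of the members' median rests on the scaling, and 4 members share their position with a copy row. Under quantile normalization 23 members were called higher and 3 lower, with a median of 0.19, and with Saa1, Saa2 and Saa3 left out 20 and 3, with a median of 0.17. Over all genes tested the medians in these fits were -0.09 and 0.35, with 2969 of 13800 and 5633 of 13852 called higher. At an adjusted p under 0.01 the calls were 9 (1 higher, 8 lower), and among the 48 members that overlap no other row 11 (9 lower). Leaving out single mice gave 9 to 22 called, 1 to 7 higher and 8 to 16 lower, with medians from -0.25 to -0.12. The fewest were called without anti-CD40 mouse 9 and the most without control mouse 4. Over 29 named members, 501 values kept direction and side of the threshold, 18 lost the call, 15 gained it and 44 in 16 members changed sign, 41 of these uncalled in both fits. The causes were not tested.

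The sign changes, in log2 fold change, were these. Rps27 summed with its copy was 0.0729. Under quantile normalization Rplp0 was 0.47, Rplp2 0.0094, Rpl13a 0.33, Rps27a 0.49, Rps3 0.34, Rpl5 0.17, Rpl11 0.14, Rps19 0.14, Rpsa 0.29, Rps4x 0.20, Rpl23a 0.32, Rpl22 0.27 and Rpl7l1 0.0598. With the Saa genes left out they were, in the same order, 0.36, 0.0407, 0.21, 0.33, 0.18, 0.27, 0.27, 0.0268, 0.28, 0.17, 0.24, 0.18 and 0.23. Median-of-ratios scaling gave Rplp0 0.001. Over fits without a single mouse, Rps29 ranged from -0.0165 to 0.0765, Rplp0 from -0.062 to 0.0518, Rplp2 from -0.5618 to 0.0703, Rps27a from -0.1571 to 0.0523, Rpl5 from -0.2081 to 0.0112 and Rpsa from -0.3369 to 0.28. Without control mice 8 and 12, Rps6 was -0.0745 and Rplp0 0.0737.

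No paired analysis was possible because the groups share no mouse number.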
